A study of Lactuca sativa with 20 samples.

Results

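The comparison described here sets lettuce seedlings given the peptide CLE12p directly against seedlings given abscisic acid (ABA), each at 10 µM for 2 h. Its members are all libraries carrying those 2 labels, 3 for CLE12p and 3 for ABA, which is 6 of the 20 RNA-sequencing libraries in the series. All gene models were taken, and 23413 of 37828 passed the filter on low counts. Lettuce (*Lactuca sativa*, Little Gem) was raised on MS basal medium in continuous light, and RNA was taken from the whole seedling. The remaining libraries were used as points of reference. They were water (3 libraries), 0.02% ethanol (2), 10 µM ACC (3), CLE12p with ABA (3) and CLE12p with ACC (3), the combinations holding 10 µM of each compound. The labels do not say whether the ABA or the peptide solutions contained ethanol, nor whether replicates came from separate batches of seedlings, so p-values measure the spread between these libraries, which may be partly technical. RNA of a whole seedling mixes its organs, so fewer cells of a type and less RNA per cell cannot be told apart.

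ABA is a small plant hormone made under drought, salt and osmotic stress. It binds soluble receptors that then inhibit a class of protein phosphatases, which frees kinases to activate transcription factors. It closes stomata, holds seeds dormant and can promote senescence. CLE peptides are short signals cut from secreted precursor proteins and sensed at the cell surface by leucine-rich-repeat receptor kinases, with known roles in meristems, vascular tissue and roots. The series title links LsCLE12 peptide to delayed senescence in lettuce. The direct comparison asks which transcripts stand at different levels under the peptide and under the hormone at the same dose and time.

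Total counts were 18614220, 23675672 and 19545565 in CLE12p replicates 1 to 3 and 20636520, 21914328 and 21076877 in ABA replicates 1 to 3. On the first principal component of the 6 libraries, which held 58.6% of the variance of log2 CPM (CPM, counts scaled to a common library size with TMM factors), the ABA libraries lay from -52.1 to -47.4. The CLE12p libraries lay at 54.2, 39.1 and 56.5, so replicate 2 stood closer to ABA than the other two. The second component (13.6%) separated CLE12p replicate 2 at -41.6 from replicate 3 at 41.4, with replicate 1 at -6.78 and ABA from 1.78 to 2.87. The median SD per gene was 0.177 log2 CPM over the CLE12p libraries and 0.125 over the ABA libraries. The gene identifiers of the table matched 0 of the 51651 genes in the reference gene table, so genes are given by identifier, and functions and sequences are not given.

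The peptide and the hormone left 22% of the genes tested at different levels. In edgeR's quasi-likelihood test with Benjamini-Hochberg adjustment, 5156 of 23413 genes (22%) passed an adjusted p of 0.05, of which 2926 (12.5%) were higher with CLE12p and 2230 (9.52%) were higher with ABA. The median difference among the calls was 1.59-fold, with an interquartile range of 1.33 to 2.29. Genes higher with CLE12p differed by more, at a median of 1.72-fold against 1.48-fold for genes higher with ABA. Among all genes tested the median log2 fold change was 0.00.

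The large differences were mostly on the side of genes that stood higher with the peptide. At least 2-fold separated the treatments for 1625 called genes (6.94%), 1145 of them (4.89%) higher with CLE12p and 480 (2.05%) higher with ABA. At least 4-fold separated 424 genes higher with CLE12p and 159 higher with ABA. At 16-fold the numbers were 78 and 41. The 3 CLE12p and 3 ABA libraries did not overlap for 4931 of the 5156 calls, while 35.2% of all genes tested showed no overlap.

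**Figure D1:**
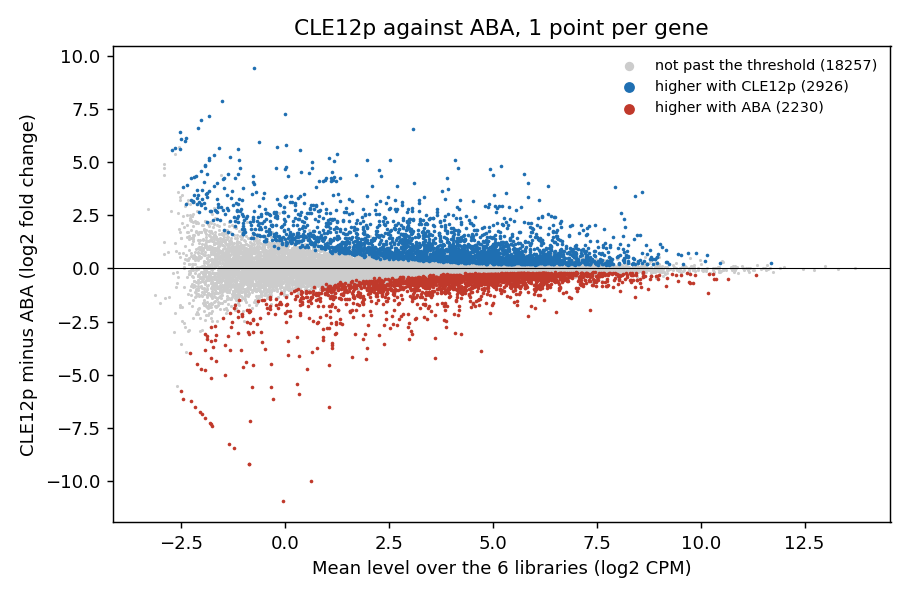
Log2 fold change of CLE12p minus ABA (vertical axis) against the mean level over the 6 libraries in log2 CPM (horizontal axis), with 1 point per gene. Blue points are the 2926 genes higher with CLE12p and red points the 2230 higher with ABA; large differences are most frequent at low levels, where errors are also widest.

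Both the share of genes called and the fold of the calls moved with the level, and so did the standard error. In the quartile of genes with the lowest mean level over all libraries, 13.4% were called, with a median difference of 3.42-fold among the calls. In the highest quartile 27.5% were called, with a median of 1.33-fold. The median standard error of the log2 fold change fell from 0.455 in the lowest quartile to 0.0816 in the highest, so that a call at a low level needs a larger fold.

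Of the 78 genes at 1000 CPM or more over the 6 libraries, 11 were called (14.1%, beside 22% of all genes tested), 4 of them higher with CLE12p. These are named here because of their level, after their values were seen. Lsat_1_v5_gn_4_183881 stood at 1492, 1608 and 1162 CPM with CLE12p and at 898, 910 and 951 CPM with ABA, a 1.55-fold difference (log2 0.63 ± 0.10 SE; adjusted p = 3.86e-05). The groups did not overlap, and water, at 1470 ± 115 CPM (SD, n = 3), lay with the peptide. The other three, Lsat_1_v5_gn_6_32121, Lsat_1_v5_gn_7_103521 and Lsat_1_v5_gn_8_151760, were higher with CLE12p by 1.20-fold, 1.21-fold and 1.28-fold. Among the 7 higher with ABA, the difference was widest for Lsat_1_v5_gn_2_82001, at 877, 680 and 767 CPM with CLE12p and 1606, 1807 and 1793 CPM with ABA (2.24-fold; log2 -1.16 ± 0.19 SE; adjusted p = 7.78e-05). Its controls stood at 825 ± 146 CPM (SD, n = 3) in water and 1387 ± 258 CPM (SD, n = 2) in ethanol.

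The called genes made up different shares of the libraries, in the direction that their choice requires. Genes higher with CLE12p took 16.6%, 15.4% and 16.8% of all counts in the CLE12p libraries and 10.1% in each ABA library. Genes higher with ABA took 9.06%, 9.58% and 9.01% with CLE12p and 13.5%, 13.4% and 13.1% with ABA. In water, which had no part in choosing them, the shares were 13.3% ± 0.848 and 10.2% ± 0.164 (SD, n = 3), between the treatments for both sets.

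A close match between the treatments could also be bounded, more often for genes at higher levels. The 95% interval of the log2 fold change lay wholly within 1.5-fold for 11905 genes (50.8%), 1074 of which were also called. Of the 18257 genes not called, 10831 had such a narrow interval, while for 4139 the interval reached 2-fold or more and a sizeable difference could not be bounded. Narrow intervals were found for 83.2% of genes in the highest quartile of level and for 0.991% in the lowest.

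Among calls whose groups did not overlap and whose mean level was at least 1 log2 CPM, the 2 widest differences in each direction were taken. Lsat_1_v5_gn_5_60700 stood at 77.95, 74.2 and 90.0 CPM in the CLE12p libraries and at 0.766, 0.585 and 1.17 CPM in the ABA libraries. It was high in every library without ABA and low in every library with it. Direct log2 fold change was 6.58 ± 0.17 (SE; adjusted p = 6.03e-17), or 95.6-fold. Its control level was 64.1 ± 4.39 CPM in water (SD, n = 3) and 64.4 ± 1.28 CPM in ethanol (SD, n = 2), and CLE12p against water did not pass the test (0.33; adjusted p = 0.0725). With both compounds the gene stood at 0.803 ± 0.326 CPM (SD, n = 3), the level of ABA alone.

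Lsat_1_v5_gn_3_40361 stood at 10.5, 6.94 and 17.6 CPM with CLE12p and at 0.383, 0.315 and 0.235 CPM with ABA, where the 3 libraries held 8, 7 and 5 counts. The difference was 36.7-fold (log2 5.20 ± 0.46 SE; adjusted p = 1.61e-08). The groups lay far apart although the peptide libraries spread widely. With both compounds the libraries held 0.392, 2.22 and 0.800 CPM (9, 49 and 18 counts), all below every control library. Replicate 1 of the combination was level with the highest ABA library, and replicate 2 stood furthest above ABA.

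On the other side, Lsat_1_v5_gn_2_133640 stood at 17.1, 18.5 and 14.2 CPM with ABA and at 0.111, 0.164 and 0.263 CPM with CLE12p, where it had 2, 4 and 5 counts. The log2 fold change was -6.49 ± 0.34 (SE; adjusted p = 4.49e-12), and with 11 counts over the peptide libraries its size is uncertain. Water held 0.107 ± 0.0251 CPM (SD, n = 3), and the combination held 14.3 ± 2.12 CPM (SD, n = 3). The gene was thus high in both treatments with ABA and near 0 in every other one.

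Lsat_1_v5_gn_8_81521 followed the same order, at 10.0, 9.05 and 8.40 CPM with ABA and 0.444, 0.411 and 0.315 CPM with CLE12p. No library of one group came near the other, and the difference was -4.53 ± 0.41 on the log2 scale (SE; adjusted p = 1.97e-08). The combination, at 9.06 ± 1.05 CPM (SD, n = 3), differed from ABA by -0.01 ± 0.29 (SE). Adding the peptide to ABA moved none of these 4 genes past the threshold, though Lsat_1_v5_gn_3_40361 stood 1.84 ± 0.59 higher on the log2 scale (SE; adjusted p = 0.0866).

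Complete absence of a transcript under one treatment was rare. With 0 counts in all 3 ABA libraries and at least 10 counts in each CLE12p library there were 3 genes, named here after their values were seen. Lsat_1_v5_gn_4_50160 had 84, 80 and 72 counts with CLE12p, at least 82.5-fold higher than ABA taking 3 counts over the 3 empty libraries as the floor. Lsat_1_v5_gn_6_78320 had 35, 24 and 20 counts and was at least 27.6-fold higher. Lsat_1_v5_gn_8_100441 had 19, 17 and 13 counts and was at least 17.1-fold higher. All 3 were also nearly absent with both compounds, with 1, 2 and 0 counts over its 3 libraries. The first was present in both controls, with 203 counts in water and 167 in ethanol, as was the second with 70 and 69, whereas the third had 35 in water and 4 in ethanol.

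The reverse pattern, 0 counts in all 3 CLE12p libraries and at least 10 in each ABA library, was found in 10 genes. Their ABA libraries held from 10 to 283 counts, which places them at least 12.1-fold to 220.6-fold higher with ABA. Only 1 of these 10 genes reached 10 counts over the 5 water and ethanol libraries together. All 10 were present with both compounds, with from 14 to 606 counts over the 3 combination libraries. They passed the filter on low counts only through libraries given ABA. The floors cover counting error only.

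The place of the controls describes which treatment lay further from them. The 5 control libraries take no part in the direct contrast. Their place is still not independent of the call, because it is measured from the ABA and CLE12p means that made it. For 63.2% of the called genes the controls lay nearer to CLE12p than to ABA in log2 CPM, compared with 53.8% of all genes tested. The share was 71.8% among genes higher with ABA and 56.5% among genes higher with CLE12p. The share of called genes depended on 1 library. Without CLE12p replicate 2 it was 52.7%. The share of all genes tested was not computed without that replicate, so any excess there is not known. The controls lay between both treatments for 78.4% of the called genes and for 45.8% of all genes tested. Calling genes whose treatments lie apart raises that share by itself.

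Relative to the controls, genes higher with CLE12p stood a median of 0.31 log2 CPM above them with the peptide and 0.39 below them with ABA. Genes higher with ABA stood 0.39 above the controls with ABA and 0.17 below them with the peptide. Over all genes tested both medians were 0.00.

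Crossing direction with the place of the controls gave 4 classes. Their sizes rest on the same placement and share its dependence on CLE12p replicate 2. The most numerous held 1654 genes that were higher with CLE12p and had controls nearer CLE12p, and stood 0.66 log2 CPM below the controls with ABA (median). Next came 1602 genes that stood 0.52 above the controls with ABA and 0.10 below them with the peptide. In 1272 genes the peptide level was 0.57 above the controls, with ABA 0.14 below them. The fewest, 628 genes, stood 0.34 below the controls with the peptide, and 65 of them differed by at least 2-fold. By contrast, 709, 415 and 436 genes of the first 3 classes reached 2-fold.

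**Figure D2:**
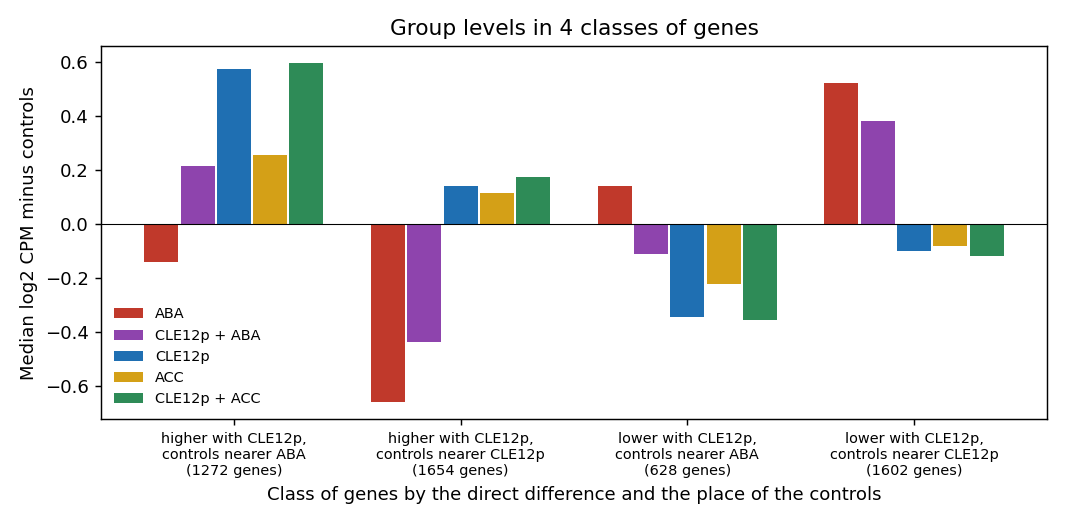
Median log2 CPM minus the controls (vertical axis) of each treatment in 4 classes of the 5156 called genes, split by direction and by which treatment the water and ethanol libraries lay nearer. The ABA and CLE12p bars follow from how the classes were made; the combination of CLE12p with ABA lies between them in each class, at 0.22, -0.44, -0.11 and 0.38 from left to right.

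Seedlings given both compounds stood closer to ABA than to CLE12p on the genes that separate the treatments. The combination libraries had no part in the call, though the ABA and CLE12p means from which their place was measured did. Their mean lay nearer to ABA for 67.8% of the called genes and for 54.9% of all genes tested. The share was 65.7% for genes higher with CLE12p and 70.6% for genes higher with ABA. By library it was 73.1%, 54.5% and 71.9%. Replicate 2 of the combination thus stood apart. The share over all genes tested was not computed by library, so the 54.9% of the mean is no baseline for that replicate. Without that replicate the share was 74.3%.

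In the 4 classes, which are set by the direct call and the place of the controls and not by a test against the controls, the share differed. Both the classes and the share are measured from the same ABA and CLE12p means. Where the controls lay nearer CLE12p, the combination was nearer to ABA for 80.9% of the 1654 genes higher with CLE12p and for 80.0% of the 1602 genes higher with ABA. Where the controls lay nearer ABA, it was nearer to ABA for 45.8% of the 1272 genes higher with CLE12p and for 46.5% of the 628 genes higher with ABA. For 4039 of the called genes the combination lay between both single treatments. It lay beyond ABA for 853 and beyond CLE12p for 264. Over all 23413 genes tested it lay between them for 10205, beyond ABA for 7034 and beyond CLE12p for 6174. Calling genes whose treatments lie apart raises the share between them by itself.

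As a check on libraries outside the contrast, the mean of each called set was followed in every library, relative to water. The 2926 genes higher with CLE12p scored 0.453, 0.291 and 0.467 log2 CPM in the CLE12p libraries and -0.649, -0.640 and -0.615 in ABA, as their choice requires. The combination scored -0.342, -0.125 and -0.324, all below the water libraries, which ranged from -0.0677 to 0.0823. Set by set, 38.0% of these genes stood above the controls in the combination, compared with 49.0% of all genes tested, and 33.6% did without its replicate 2.

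The 2230 genes higher with ABA scored from 0.625 to 0.661 in ABA and from -0.187 to -0.135 in CLE12p. The combination scored 0.457, 0.375 and 0.471, above every library without ABA. In it 73.3% of these genes stood above the controls, and 77.1% without its replicate 2.

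**Figure D3:**
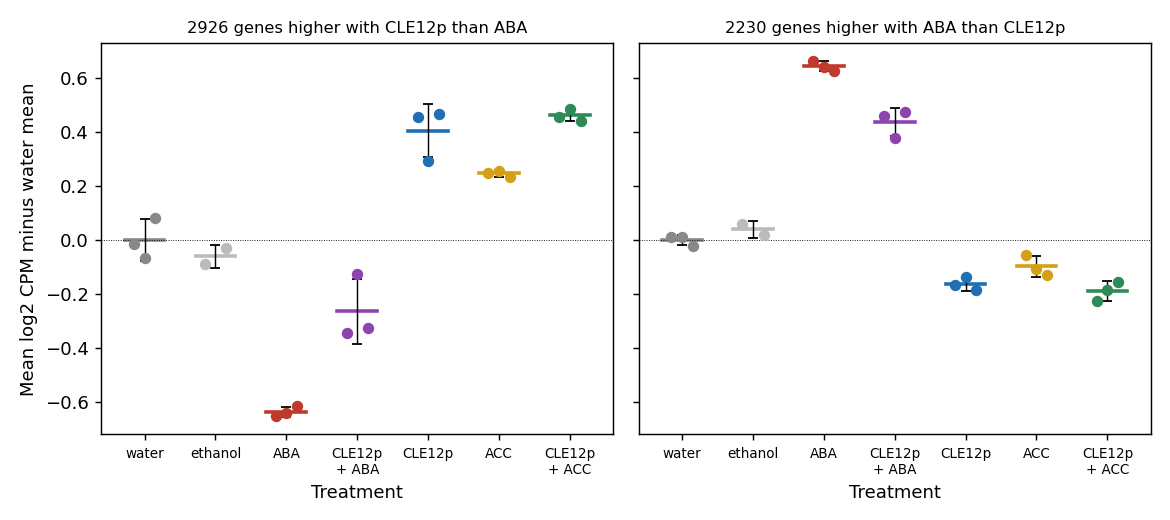
Mean log2 CPM of the genes called in each direction, minus the water mean (vertical axis), by treatment, with 1 point per library; bars are group means and whiskers the SD. The ABA and CLE12p libraries chose the genes; among the rest, the combination with ABA lies on the ABA side in both panels, and ACC and CLE12p with ACC lie on the CLE12p side.

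ACC, the direct precursor of ethylene, placed the same genes on the peptide's side. The genes higher with CLE12p scored 0.246 ± 0.0128 in ACC (SD, n = 3), and those higher with ABA scored -0.098 ± 0.0381. Of the genes higher with CLE12p, 74.3% stood above the controls in ACC, and of the genes higher with ABA 30.6% did, while the figure for all genes tested was 49.6%. Against ACC alone, CLE12p with ACC was higher in 71.5% of the first set and 36.3% of the second, with 49.6% of all genes tested. The medians of that difference were 0.15 and -0.08 on the log2 scale, and 0.00 over all genes.

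Because ABA is often dissolved in ethanol, the direct difference was also taken after subtracting a control from each side, water from CLE12p and ethanol from ABA. That difference was called for 2210 genes (9.44%), 1370 of them (5.85%) higher with the peptide and 840 (3.59%) higher with ABA. It carries the errors of 4 groups, and its median standard error was 0.218 compared with 0.146 for the direct one. Its calls and the direct ones share the CLE12p and ABA libraries. All 4 of the genes described above as widest at 1 log2 CPM or more passed it, with log2 values of 6.59, 4.93, -5.20 and -4.69 in the order given above. Ethanol against water itself gave 0 calls in edgeR. Of the 23413 genes tested, 1251 had an unadjusted p below 0.05, near the share of 0.05 that no difference would give. Over the genes higher with CLE12p, ethanol minus water had a median of -0.04, and over the genes higher with ABA 0.04.

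Each treatment was also set against its own control, and these 2 comparisons share no library. ABA against ethanol called 2378 genes (10.2%), of which 1206 (5.15%) rose and 1172 (5.01%) fell. CLE12p against water called 1251 (5.34%), of which 1019 (4.35%) rose and 232 (0.991%) fell. Both counts rested on single libraries. ABA called 1537 and 1396 genes without ethanol replicates 1 and 2. CLE12p called 712 and 636 without water replicates 1 and 2, 757 and 686 without CLE12p replicates 1 and 3, and 2073 without CLE12p replicate 2. Called in both were 325 genes. They made up 26.0% of the peptide list, where ABA called 10.2% of all genes, and 13.7% of the ABA list, where the peptide called 5.34% of all genes. Across all genes tested the log2 fold changes had a Pearson r of -0.01 and a Spearman rho of -0.02, a description over genes that are not independent replicates.

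Within the shared calls, opposite movement was more common than common movement. Opposite directions were found for 211 genes and the same direction for 114. Of the opposite ones, 187 fell with ABA and rose with CLE12p, with medians of -0.98 and 0.82 on the log2 scale, and 24 rose with ABA and fell with CLE12p, with medians of 0.67 and -0.50. Of the common ones, 91 rose with both and 23 fell with both. With ACC, 69 of the 91 and 5 of the 23 stood above the controls, as did 166 of the 187 and 3 of the 24. Of all genes tested 49.6% did. In libraries outside all these comparisons, CLE12p with ACC against ACC had a median of 0.57 over the 187 genes, -0.31 over the 24, 0.44 over the 91 and -0.31 over the 23. When single libraries were left out, the number of opposite genes ranged from 133 (without water replicate 2) to 313 (without CLE12p replicate 2), and that of common genes from 60 (without ethanol replicate 2) to 197 (without CLE12p replicate 2).

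**Figure D4:**
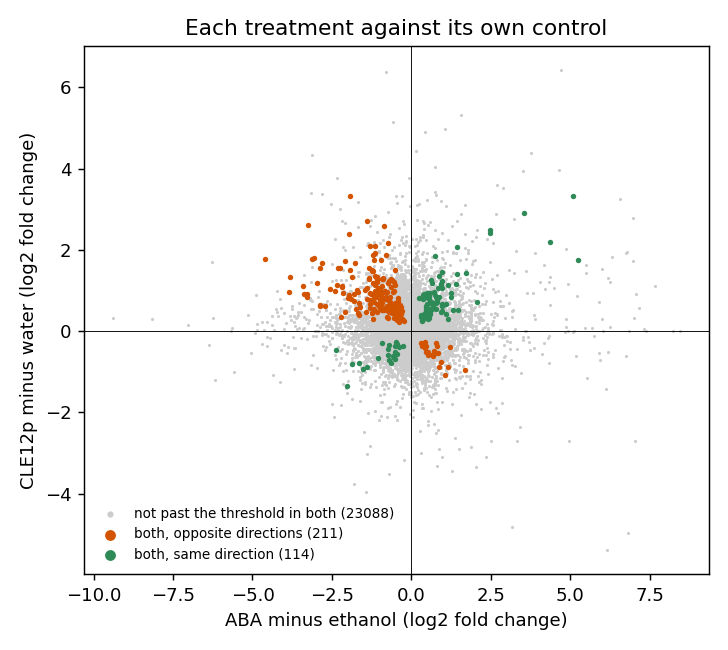
Log2 fold change of CLE12p minus water (vertical axis) against that of ABA minus ethanol (horizontal axis), with 1 point per gene. Orange points are the 211 genes past the threshold in both with opposite directions, most of them in the upper left (lower with ABA, higher with CLE12p), and green points the 114 with the same direction.

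Genes called in opposite directions are shown by Lsat_1_v5_gn_4_124001, which stood at 264, 215 and 265 CPM with CLE12p and at 13.0, 10.9 and 10.7 CPM with ABA. The controls held 47.6 ± 9.52 CPM in water (SD, n = 3) and 45.2 ± 1.85 CPM in ethanol (SD, n = 2), between both groups. The gene rose by 2.38 ± 0.15 with the peptide (SE; adjusted p = 1.08e-09) and had a log2 fold change of -1.97 ± 0.18 with ABA (adjusted p = 6.11e-08). The direct difference was 21.5-fold (adjusted p = 9.71e-14). With both compounds it stood at 40.2 ± 11.4 CPM (SD, n = 3), close to the controls, and with CLE12p and ACC at 359 ± 27.3 CPM. The sets as wholes stayed on the side of ABA with both compounds. Of the 187 genes, 41 (21.9%) then stood above the controls, with a median of -0.29 log2 CPM from them. Of the 24 genes in the reverse order, 21 (87.5%) did, with a median of 0.23.

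Lsat_1_v5_gn_6_10480 showed the same order, at 108, 84.2 and 104.6 CPM with CLE12p and 2.54, 3.38 and 2.72 CPM with ABA. Its direct log2 fold change was 5.10 ± 0.23 (SE; adjusted p = 6.44e-13). In the combination it held 22.8 ± 7.26 CPM (SD, n = 3), above water at 9.87 ± 3.16 CPM. Both genes were higher in the combination than in ABA, by 1.80 ± 0.16 and 2.98 ± 0.24 on the log2 scale (SE), and both rose when the peptide was added to ACC, by 2.33 and 3.14.

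In the reverse order, Lsat_1_v5_gn_5_151201 stood at 62.5, 60.6 and 63.1 CPM with ABA and at 14.7, 14.7 and 14.8 CPM with CLE12p. The replicates of each group were nearly equal, and water lay between at 31.2 ± 0.831 CPM (SD, n = 3). Its direct log2 fold change was -2.07 ± 0.15 (SE; adjusted p = 7.25e-10). With both compounds it held 26.9 ± 7.57 CPM, near the controls again, and ACC held it at 8.56 ± 0.968 CPM (SD, n = 3), lower than the peptide did.

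Lsat_1_v5_gn_1_40420 stood at 52.1, 61.7 and 51.2 CPM with ABA and at 7.21, 7.60 and 4.62 CPM with CLE12p, a log2 difference of -3.08 ± 0.21 (SE; adjusted p = 2.52e-10). Here the combination stayed on the side of ABA, at 41.3 ± 5.40 CPM (SD, n = 3), and the step from ABA of -0.41 ± 0.18 did not pass the test (adjusted p = 0.224). Ethanol was uneven, at 22.5 and 12.1 CPM in its 2 libraries.

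Genes that passed the test in the same direction under both treatments are shown by the next 4. Lsat_1_v5_gn_9_95120 rose from 3.54 ± 1.07 CPM in water (SD, n = 3) to 30.2, 6.53 and 23.2 CPM with CLE12p. From 4.70 ± 1.36 CPM in ethanol (SD, n = 2) it rose to 23.8, 21.3 and 33.4 CPM with ABA. The groups overlapped, and the direct log2 difference of -0.41 did not pass the test (95% interval -1.21 to 0.40; adjusted p = 0.532). It was 0.03 without CLE12p replicate 2, the lowest peptide library.

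Lsat_1_v5_gn_7_105640 passed the test as higher with both, at 32.1, 26.7 and 24.9 CPM with ABA and 8.76, 1.11 and 6.72 CPM with CLE12p. All ABA libraries were above all peptide libraries (direct log2 fold change -2.38 ± 0.38 SE; adjusted p = 6.77e-05). After subtraction of each control the difference was -2.18 and did not pass the test (adjusted p = 0.0836). In CLE12p replicate 2 the gene was at the level of water, 1.17 ± 0.311 CPM (SD, n = 3). The combination held 31.8 ± 7.84 CPM, the level of ABA.

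Falling with both, Lsat_1_v5_gn_5_70600 stood at 4.71, 6.62 and 3.36 CPM with CLE12p and at 2.63, 2.52 and 3.71 CPM with ABA, below 12.6 ± 3.08 CPM in water (SD, n = 3). The direct interval ran from -0.01 to 1.502 on the log2 scale (adjusted p = 0.166). Lsat_1_v5_gn_8_10000 stood at 4.32, 6.70 and 4.73 CPM with CLE12p and at 3.21, 4.77 and 3.43 CPM with ABA, with an interval of -0.08 to 1.02 (adjusted p = 0.237). Both intervals reached 2-fold. Both were lower still in the combination, at 1.33 ± 0.107 and 0.856 ± 0.276 CPM (SD, n = 3). Lsat_1_v5_gn_8_10000 passed the test against both single treatments there (log2 fold changes of -2.14 against ABA and -2.61 against CLE12p; adjusted p = 2.91e-04 and 2.69e-06).

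**Figure D5:**
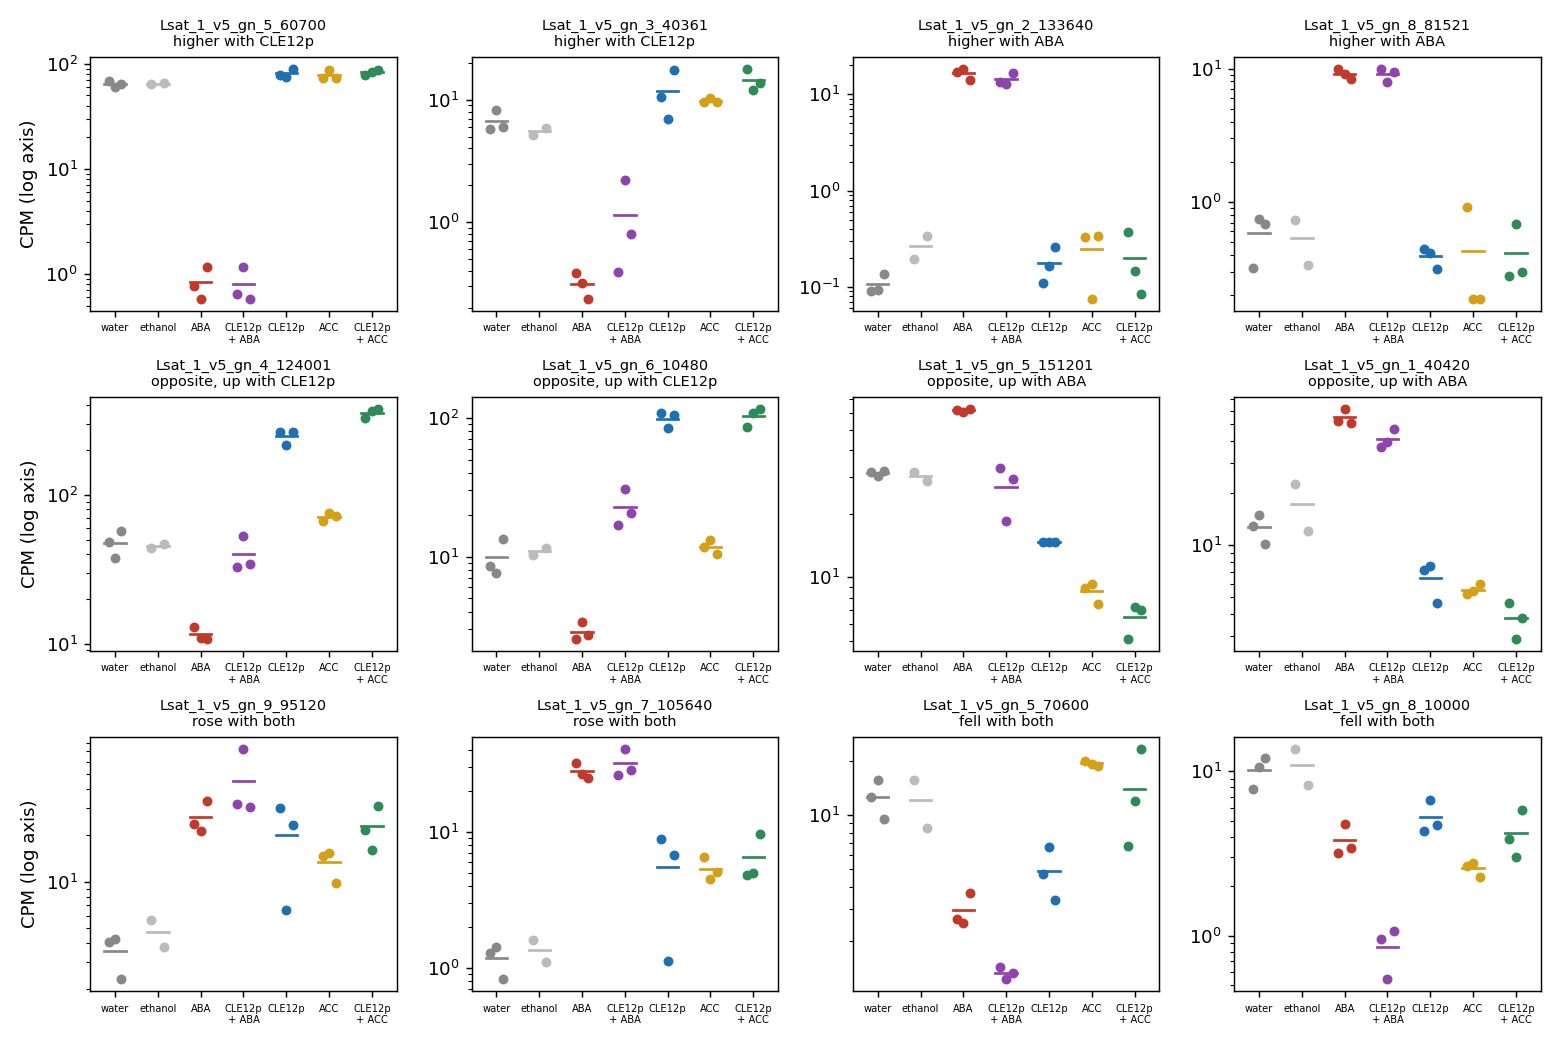
CPM on a log axis (vertical, its range set for each gene) of the 12 genes chosen by rule, with 1 point per library and a bar for the mean of each of the 7 treatments. The top row holds the widest direct differences among non-overlapping calls averaging at least 1 log2 CPM. There the combination lies at the level of ABA in 3 of the 4 genes. In Lsat_1_v5_gn_3_40361 its mean lies above ABA, a difference that did not pass the test. The middle row holds genes moved in opposite directions, and the bottom row genes moved in the same direction.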

How the data were processed

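Whole-seedling RNA of 20 lettuce libraries in 7 treatment groups was compared. The authors deposited raw, unpooled read counts, in which each library has its own column of whole numbers. The submitters' processing notes name STAR 2.7.10a. How reads were counted, with which strand setting, genome build and annotation, is not given in the sources available, so reads of overlapping genes and near-identical copies cannot be told apart. Library totals ran from 18614220 to 27101622 counts. Libraries were grouped by title. Where the series' design text and the labels disagree on the last combination, the labels (CLE12p with ACC) were followed.

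The counts were analysed in R 4.3.3 with the quasi-likelihood method of edgeR 4.0.16. The filter was filterByExpr with a minimum count of 10, scaling was by TMM, and 1 model of group means held all 20 libraries. Tests were two-sided and adjusted by Benjamini-Hochberg over all 23413 genes tested. Standard errors were obtained from the log2 fold change and F. Levels are CPM with TMM scaling; positions and scores used log2 CPM with a prior count of 2. The test was checked on simulated counts. Replicates of CLE12p and of ABA differed by more than counting noise, the CLE12p replicates by more. Chi-square values for each degree of freedom were 12.5 to 24.9 between CLE12p replicates and 3.59 to 4.27 between ABA replicates.

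Genes were named by rule: among non-overlapping calls averaging 1 log2 CPM or more, the 2 highest and 2 lowest fold changes. For genes called against both controls, the 2 per direction with the largest smaller change were taken, without the overlap condition where both moved alike. The comparison, its tests and this rule were chosen with earlier results of these data known. Alternatives were RLE factors, no filter, DESeq2 1.42.0, fewer libraries, other controls and a replicate block.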

Additional observations from a re-analysis of the deposited data

How the results depend on the processing

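The direct counts of calls, of calls of at least 2-fold and of genes bounded within 1.5-fold stayed within 1.5 times under each alternative run: RLE factors, no filter, DESeq2, only the 6 libraries, the replicate block, and each of the 6 libraries left out. Direct calls were 5443 in DESeq2, 4566 with only the 6 libraries, and from 4008 to 5007 with 1 library left out; the share higher with CLE12p ran from 55.0% to 58.0%. Of 132 refits of the 12 named genes, 131 kept direction and side of the threshold; Lsat_1_v5_gn_9_95120, not called, changed sign without CLE12p replicate 2 (log2 from -0.84 to 0.030 with 1 library left out).

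Counts against own controls depended on the control and on single libraries. With water as the control of ABA the controls cancel, so the control-subtracted difference had 5156 calls, and common genes were 187. With water as the control of ABA, or with both controls pooled, the ABA and CLE12p comparisons share control libraries. Errors of those libraries enter both comparisons in the same direction. With both controls pooled the numbers were 5154 for the subtracted difference, 3919 for ABA, 1936 for CLE12p, 431 opposite and 288 common. Pooling gives 5 control libraries. With 1 library left out, they ran from 1538 to 2596 for the subtracted difference, 1396 (without ethanol replicate 2) to 1923 for ABA, 636 (without water replicate 2) to 2073 (without CLE12p replicate 2) for CLE12p, 133 to 313 opposite and 60 to 197 common. A lone ethanol library was assumed to vary like the other groups. The share of calls with controls nearer CLE12p ran from 52.7% to 66.0%, and that with the combination nearer ABA from 63.1% (without combination replicate 3) to 74.3% (without its replicate 2).

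Same-numbered CLE12p and ABA libraries did not deviate together (r of -0.0151, -0.0126 and 0.0188), and not every library correlated best with its own number. With the replicate block 4913 genes were called directly, 1591 of at least 2-fold, and 2060 after subtracting controls. Depth limits the lowest quartile of genes, where the median standard error was 0.455.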
